A study of Canis lupus familiaris with 6 samples.

Results

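Genes of cholesterol and fatty acid synthesis that answer to the sterol regulatory element-binding proteins (SREBPs) were examined in 6 primary canine osteosarcoma cell lines. Osteosarcoma is a malignant tumour of bone. The set was chosen by name: 32 genes, each read from the brightest probe set whose only annotated symbol was that gene. Of these, 31 had such a probe set, among 15115 genes that did. IDI1 had none and was not analysed here. Transplanted into mice, the tumorigenic lines gave tumours (n = 3, named UWKOS1, UWKOS3 and UWKOS7), and the non-tumorigenic lines gave none (n = 3, named UWKOS2, UWKOS6 and UWKOS8). All lines were grown in the same medium with 10% cosmic calf serum, and RNA was taken at about 70 to 80% confluency from the cultured cells, not from transplants. Each line was hybridised to 1 Affymetrix array, so every p-value here measures the spread between lines, and precision is limited by how few arrays there are.

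Cells build cholesterol from acetyl-CoA through HMG-CoA and mevalonate to farnesyl diphosphate, then through squalene and lanosterol. SREBPs are membrane-bound transcription factors: when sterols are low, the escort protein SCAP carries them to the Golgi for cleavage, and when sterols are high, INSIG proteins hold the complex in the endoplasmic reticulum. SREBP-2, encoded by SREBF2, mainly drives sterol genes, and SREBP-1, encoded by SREBF1, mainly drives fatty acid genes. Activity is set largely by cleavage, which an RNA measurement does not read.

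Values are log2 signals per probe set, and differences are tumorigenic minus non-tumorigenic unless another pair is named. Tests were run over the 9145 genes whose mean over the lines was at least 6.07, the median log2 value of the probe sets that are not controls. A gene was called changed where its limma adjusted p was below 0.05. In all, 12.1% of the genes tested were called, 7.5% higher and 4.63% lower in the tumorigenic lines. Array medians lay between 6.03 and 6.05. The 3' to 5' signal ratios of the actin and GAPDH control probe sets, averaged over 4 pairs on the log2 scale, were 0.53 in UWKOS1, 0.59 in UWKOS3 and 0.81 in UWKOS7. They were 0.62 in UWKOS2, 1.55 in UWKOS6 and 1.48 in UWKOS8, so 2 of the 3 non-tumorigenic lines stood apart in this measure of RNA integrity and labelling. As a check of the labelled tissue, the bone collagens COL1A1 and COL1A2 and the bone matrix protein SPARC were bright in every line. Of 8 bone markers measured, ALPL, IBSP and SPP1 lay below the filter, and RUNX2 and BGLAP lay near it, at 5.84 to 6.52 and 5.32 to 6.64. SPP1 was below the filter by its mean, but read 9.76 in UWKOS1, against 2.79 to 3.30 in the other lines. The summed linear signal of 8 bone markers was 21110 to 37370 in tumorigenic and 42850 to 50140 in non-tumorigenic lines. That sum is carried mainly by the bright genes COL1A1, COL1A2 and SPARC. The difference was below 0 for these, ALPL and BGLAP. It was above 0 for 3 of 8 markers, RUNX2, IBSP and SPP1, or 37.5% against 52.6% of all genes tested.

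Of the 29 members above the filter, 2 rose in the tumorigenic lines, 0 fell and 27 did not pass. Both were fatty acid enzymes: ELOVL6, which elongates saturated fatty acids, and SCD, which introduces the first double bond. The share called higher, 6.9%, was close to the 7.5% of all genes tested. Groups did not overlap for 6 of 31 members, all 6 higher in the tumorigenic lines, a share of 19.4% against 21.7% of all genes tested. The difference was above 0 for 25 of 31 members, with a median of 0.47, against a median of 0.03 and 52.6% above 0 over all genes tested. Apart from ELOVL6 and SCD, no difference of a tested member was large enough against the spread between lines to pass.

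**Figure D1:**
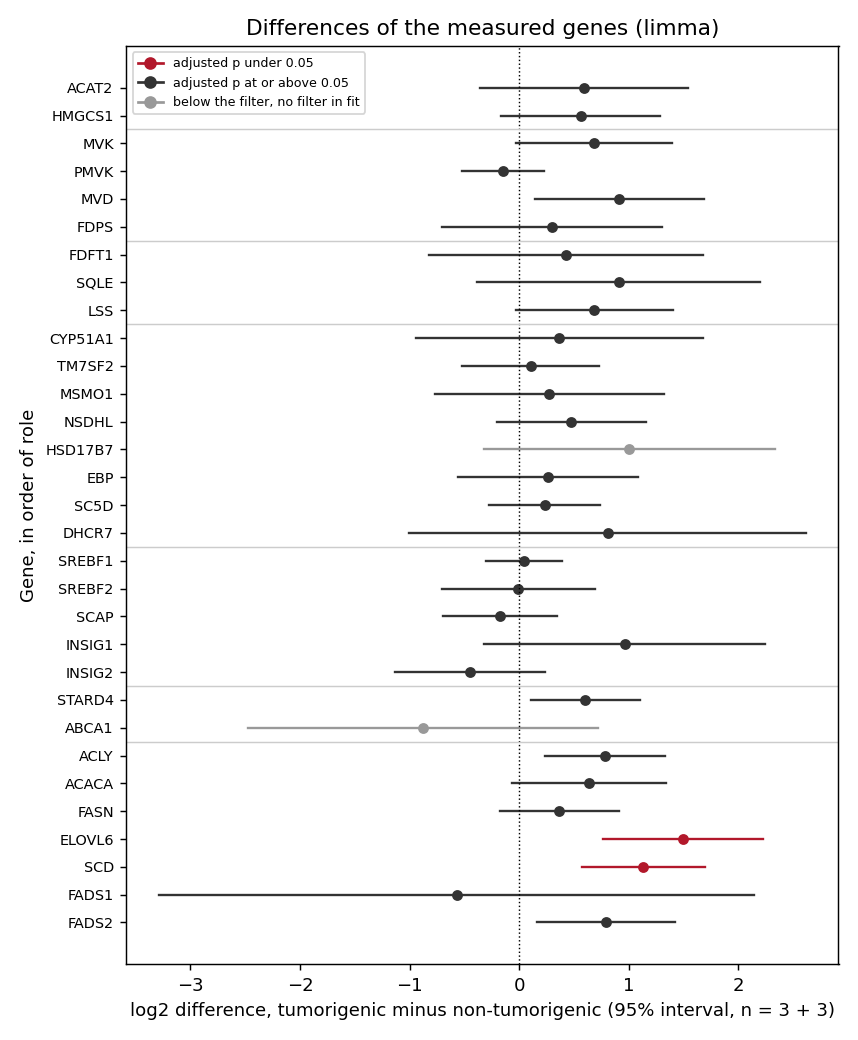
Log2 difference (x axis, tumorigenic minus non-tumorigenic) of each of the 31 measured genes (y axis, grouped by role, grey lines between groups), with the 95% interval from limma (n = 3 lines in each group). ELOVL6 at 1.49 and SCD at 1.13, in red, are those past the adjusted threshold. The interval of FADS1 is the widest, from -3.29 to 2.15, and grey points mark HSD17B7 and ABCA1, which lay below the filter.

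The first step group makes HMG-CoA. ACAT2, the cytosolic thiolase that joins acetyl-CoA units, read 10.17 in UWKOS1, 10.86 in UWKOS3 and 9.32 in UWKOS7, against 9.83 in UWKOS2, 9.42 in UWKOS6 and 9.33 in UWKOS8. UWKOS7 lay with the non-tumorigenic lines, and the difference of 0.59 (95% interval -0.36 to 1.54) did not pass (limma adjusted p = 0.351). HMGCS1, the HMG-CoA synthase, read 11.25, 10.85 and 10.25 in UWKOS1, UWKOS3 and UWKOS7, against 9.97, 10.58 and 10.13 in UWKOS2, UWKOS6 and UWKOS8. Its groups overlapped through UWKOS7 and UWKOS6, and the difference was 0.56 (limma adjusted p = 0.255).

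Of the 4 measured genes from mevalonate to farnesyl diphosphate, 0 passed. On the brightest probe sets, MVD, the mevalonate diphosphate decarboxylase, was the only sterol enzyme whose groups did not overlap. It read 8.97 in UWKOS1, 9.92 in UWKOS3 and 8.99 in UWKOS7, against 8.68 in UWKOS2, 8.45 in UWKOS6 and 8.0 in UWKOS8. Every tumorigenic line was thus above every non-tumorigenic one, by a mean difference of 0.91 (95% interval 0.14 to 1.69, limma adjusted p = 0.109). MVK, the mevalonate kinase, read 7.63, 7.33 and 6.52 in UWKOS1, UWKOS3 and UWKOS7, against 6.47, 6.56 and 6.41 in UWKOS2, UWKOS6 and UWKOS8. UWKOS1 and UWKOS3 were above all other lines, while UWKOS7 was level with the non-tumorigenic lines, and the difference was 0.68 (limma adjusted p = 0.171). PMVK, the next kinase, was nearly flat over the lines (8.11 to 8.49) and FDPS, which makes farnesyl diphosphate, ranged from 10.12 in UWKOS7 to 11.63 in UWKOS3; their differences were -0.15 and 0.30.

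The enzymes that form squalene and lanosterol were highest in UWKOS3. SQLE, the squalene epoxidase and a rate-controlling step, read 11.41 in UWKOS1, 12.70 in UWKOS3 and 10.50 in UWKOS7, against 10.67 in UWKOS2, 10.88 in UWKOS6 and 10.34 in UWKOS8. Only UWKOS1 and UWKOS3 exceeded the non-tumorigenic range, and the difference of 0.91 (SE 0.53) did not pass (limma adjusted p = 0.296). LSS, which closes the ring system to lanosterol, read 6.41 in UWKOS1, 7.04 in UWKOS3 and 5.95 in UWKOS7. It read 5.59 in UWKOS2, 6.0 in UWKOS6 and 5.77 in UWKOS8. LSS reached the filter only through UWKOS1 and UWKOS3, and its values in the other lines lay below the filter. Its difference of 0.68 did not pass (limma adjusted p = 0.171) and is given as a description. FDFT1, the squalene synthase, spanned 8.67 to 10.66 in the tumorigenic lines and 8.67 to 9.52 in the others. In this group too, UWKOS7 lay inside or at the edge of the non-tumorigenic range for each of the 3 genes.

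Of the 8 enzymes from lanosterol to cholesterol, 7 lay above the filter and 0 of them passed. HSD17B7, a sterol 3-ketoreductase, lay below the filter. It read 7.25 in UWKOS1, 6.63 in UWKOS3 and 5.18 in UWKOS7, against 5.85 in UWKOS2, 5.23 in UWKOS6 and 4.97 in UWKOS8. Its difference of 1.00 in the fit without the filter did not pass (limma adjusted p = 0.325, where 6.62% of 15115 genes were called), and values under 6.07 are not known to be above background. NSDHL, which removes the C4 carboxyl group, read 9.28, 9.92 and 8.99 in UWKOS1, UWKOS3 and UWKOS7, against 8.70, 9.22 and 8.85 in UWKOS2, UWKOS6 and UWKOS8, a difference of 0.47 (limma adjusted p = 0.300). On its dimmer probe set every tumorigenic line was above every non-tumorigenic one. That difference of 0.83 did not pass (limma adjusted p = 0.137 over all probe sets).

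CYP51A1, the lanosterol demethylase, and DHCR7, the enzyme of the final reduction, were chosen for description after their values were seen. CYP51A1 read 11.34 in UWKOS1, 11.43 in UWKOS3 and 9.38 in UWKOS7, against 10.36 in UWKOS2, 10.39 in UWKOS6 and 10.30 in UWKOS8. The non-tumorigenic lines were nearly identical, and the tumorigenic lines lay on both sides of them, with an SD of 1.16 in tumorigenic and 0.05 in non-tumorigenic lines. DHCR7 read 7.45, 9.28 and 6.58 in UWKOS1, UWKOS3 and UWKOS7, against 7.93, 6.69 and 6.27 in UWKOS2, UWKOS6 and UWKOS8, so that UWKOS3 stood above and UWKOS2 was next. The remaining enzymes were TM7SF2, a C14 sterol reductase, MSMO1, the C4 methyl oxidase, EBP, the isomerase, and SC5D, the desaturase. Their differences ran from 0.10 for TM7SF2 to 0.27 for MSMO1 and EBP.

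Line by line, the sterol enzymes were high together in UWKOS3 and UWKOS1 and low together in UWKOS7 and UWKOS8. Over the 17 enzymes, the median of the log2 value minus the gene's mean over the lines was 0.28 in UWKOS1, 0.78 in UWKOS3 and -0.50 in UWKOS7, against -0.17 in UWKOS2, -0.13 in UWKOS6 and -0.38 in UWKOS8. UWKOS3 was the highest line for 11 of the 17 enzymes, or 64.7%, where it was highest for 20.6% of all genes tested. UWKOS7, also tumorigenic, was the highest for 0 of 17 and the lowest for 5. Over all genes tested it was highest for 16.6% and lowest for 13.7%. On the brightest probe sets it exceeded all 3 non-tumorigenic lines at 1 of 17 enzymes, MVD, against 38.5% of all genes tested. UWKOS3 did so at 15, or 88.2% against 40% of all genes tested, and UWKOS1 at 12, or 70.6% against 40.1%. The SD was larger in the tumorigenic than in the non-tumorigenic group for 15 of 17 enzymes, or 88.2%, and for 64.2% of all genes tested. The mean of the hybridization control probe sets was lowest in UWKOS3, at 9.65, and lay between 9.80 and 9.93 in the other lines, and its part in these levels was not tested.

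**Figure D2:**
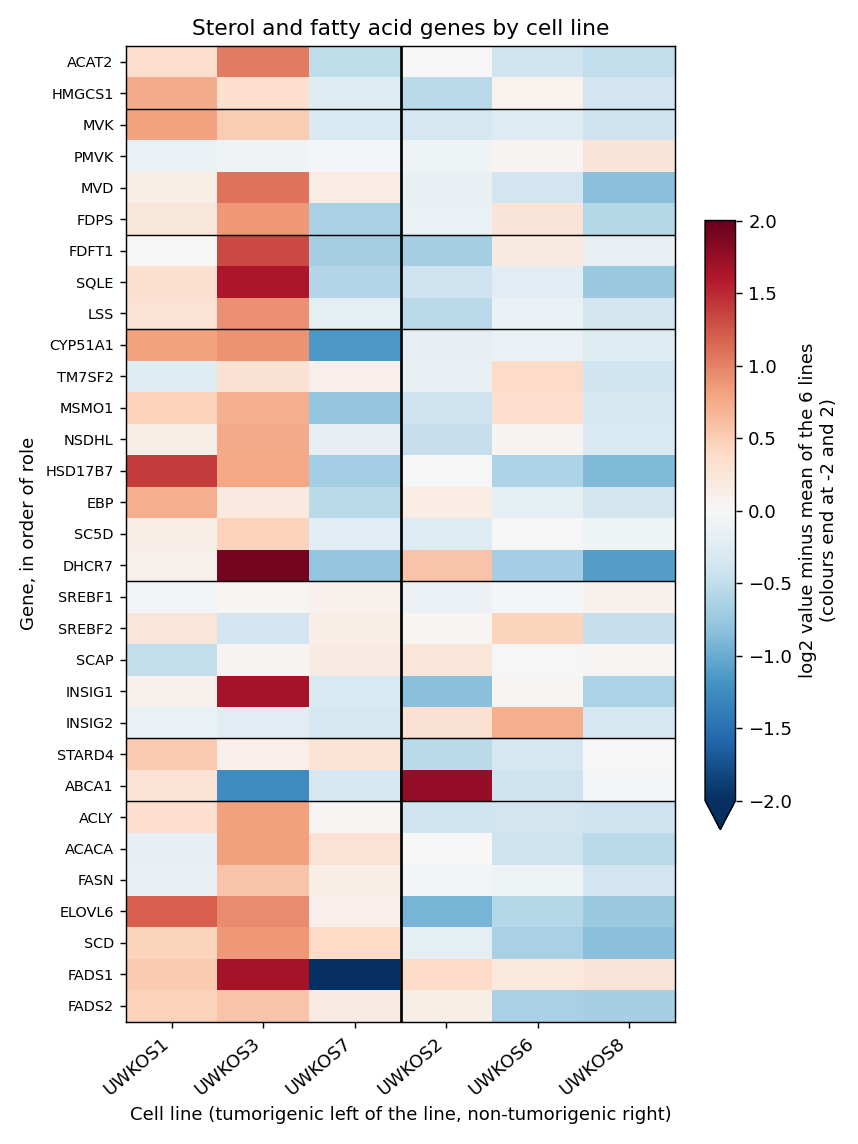
Log2 value minus the gene's mean over the 6 lines (colour, ending at -2 and 2) for the 31 measured genes (rows, in order of role, black lines between roles) in each line (columns, tumorigenic left of the vertical line). Most rows of the first 4 role groups are red in UWKOS3 and UWKOS1 and blue in UWKOS7 and UWKOS8. In the lowest group the FADS1 cell of UWKOS7 goes past the end of the colour scale.

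As a description over these 6 lines, each enzyme was correlated with the mean of the other sterol enzymes. The median Pearson r over the 17 enzymes was 0.85, against a median of 0.05 for all genes tested. SQLE at 0.97, ACAT2 at 0.95, SC5D at 0.92 and FDPS at 0.92 followed the others most closely, and TM7SF2 at 0.33 and PMVK at -0.56 did not follow them. All genes of a line were read from 1 array, so these coefficients carry any effect common to that array. In cultures measured in bulk, fewer cells expressing a gene and less RNA per cell cannot be told apart.

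Of the 5 genes that encode or control the SREBPs, 0 passed. Their r with the mean of the sterol enzymes was taken on the brightest probe sets. It was -0.14 for SREBF2, -0.21 for SREBF1, -0.43 for SCAP and -0.05 for INSIG2, and there INSIG1 alone followed the enzymes. SREBF2 read 8.31 in UWKOS1, 7.69 in UWKOS3 and 8.20 in UWKOS7, against 8.11 in UWKOS2, 8.51 in UWKOS6 and 7.60 in UWKOS8. UWKOS3, with the highest enzyme levels, had the second-lowest SREBF2 value, and the group difference was -0.01 (95% interval -0.70 to 0.69, limma adjusted p = 0.988). The 2 dimmer probe sets of SREBF2 differed by 0.61 and 0.47 and did not pass (limma adjusted p = 0.217 and 0.338). Both were highest in UWKOS1 and lowest in UWKOS8, and their r with the enzymes was not computed.

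SREBF1 read 6.73, 6.81 and 6.87 in UWKOS1, UWKOS3 and UWKOS7, against 6.67, 6.74 and 6.87 in UWKOS2, UWKOS6 and UWKOS8. Its values were close to the filter and nearly the same in every line, and the difference was 0.04 (95% interval -0.30 to 0.39, limma adjusted p = 0.854). SCAP, the sterol sensor and escort, was lowest in UWKOS1 at 9.06 and reached 9.79 in UWKOS2, a difference of -0.18 (limma adjusted p = 0.607).

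INSIG1, which retains SREBPs in the endoplasmic reticulum and is itself an SREBP target, followed the enzymes with an r of 0.89. It read 8.28 in UWKOS1, 9.85 in UWKOS3 and 7.88 in UWKOS7, against 7.35 in UWKOS2, 8.21 in UWKOS6 and 7.56 in UWKOS8. UWKOS3 stood more than 1.5 log2 units above every other line, the remaining values overlapped, and the difference of 0.96 (SE 0.53) did not pass (limma adjusted p = 0.269). INSIG2, its paralogue, read 9.51, 9.44 and 9.31 in UWKOS1, UWKOS3 and UWKOS7, against 9.94, 10.37 and 9.29 in UWKOS2, UWKOS6 and UWKOS8. Here UWKOS2 and UWKOS6 were the high lines, and the difference was -0.45 (limma adjusted p = 0.330).

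Sterol transport was represented by STARD4, which carries cholesterol between membranes, and ABCA1, which exports it to apolipoproteins and is induced by oxysterols through LXR receptors. STARD4 read 9.51 in UWKOS1, 9.08 in UWKOS3 and 9.26 in UWKOS7, against 8.44 in UWKOS2, 8.62 in UWKOS6 and 8.98 in UWKOS8. The groups did not overlap, although UWKOS3 and UWKOS8 were close, and the difference of 0.60 (95% interval 0.11 to 1.10) did not pass (limma adjusted p = 0.103). Its other 3 probe sets also had every tumorigenic line above every non-tumorigenic one. Among them the second in brightness differed by 1.69 and passed in the fit over all probe sets (limma adjusted p = 0.0309), where 7.28% of 21462 probe sets were called higher. The dimmest lay below the filter, with a mean of 5.81 and non-tumorigenic values of 4.42 to 5.47, so its separation is a description. ABCA1 lay below the filter. It read 5.02, 3.49 and 4.41 in UWKOS1, UWKOS3 and UWKOS7, against 6.51, 4.33 and 4.72 in UWKOS2, UWKOS6 and UWKOS8. Only UWKOS2 exceeded the filter value, and UWKOS3 was the lowest line.

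Of the 7 fatty acid genes, 2 rose, or 28.6% against 7.5% of all genes tested. Groups did not overlap for 4, all higher in the tumorigenic lines, or 57.1% against 21.7% of all genes tested, and the median difference was 0.78. ELOVL6 read 9.00 in UWKOS1, 8.75 in UWKOS3 and 7.91 in UWKOS7, against 6.89 in UWKOS2, 7.24 in UWKOS6 and 7.06 in UWKOS8. The lowest tumorigenic line was above the highest non-tumorigenic one, and the gene rose 2.81-fold, a log2 difference of 1.49 (SE 0.30, limma adjusted p = 0.0318). SCD, the stearoyl-CoA desaturase, read 12.53, 12.96 and 12.49 in UWKOS1, UWKOS3 and UWKOS7, against 11.89, 11.44 and 11.25 in UWKOS2, UWKOS6 and UWKOS8. Here UWKOS7 was level with UWKOS1, and the gene rose 2.19-fold, a log2 difference of 1.13 (SE 0.23, limma adjusted p = 0.0331). The second probe set of SCD also rose, by 1.81 (limma adjusted p = 0.0283 over all probe sets). The dimmest differed by 1.14, but its non-tumorigenic values were all below the filter, so this is a description.

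ACLY, which makes cytosolic acetyl-CoA from citrate for both pathways, was set apart by the tightness of the non-tumorigenic lines. It read 12.45 in UWKOS1, 12.94 in UWKOS3 and 12.14 in UWKOS7, against 11.72 in UWKOS2, 11.75 in UWKOS6 and 11.71 in UWKOS8. The groups did not overlap, and the difference of 0.78 (95% interval 0.24 to 1.33) did not pass on the brightest probe set (limma adjusted p = 0.0712). Its second probe set differed by 1.31 in the fit over all probe sets, just short of the threshold at a limma adjusted p = 0.0548. The dimmest reached the filter only through the tumorigenic lines, and its difference of 1.70 is given as a description.

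FADS2, the delta-6 desaturase, read 7.28, 7.40 and 6.99 in UWKOS1, UWKOS3 and UWKOS7, against 6.94, 6.19 and 6.16 in UWKOS2, UWKOS6 and UWKOS8. UWKOS7 and UWKOS2 nearly met, and the difference of 0.79 did not pass (limma adjusted p = 0.0941). ACACA, the acetyl-CoA carboxylase, differed by 0.63 (limma adjusted p = 0.192) and FASN, the fatty acid synthase, by 0.36 (limma adjusted p = 0.318). Their groups overlapped on the brightest probe sets. On the second probe set of FASN the groups did not overlap, and the difference of 0.65 did not pass (limma adjusted p = 0.144 over all probe sets). On the brightest probe sets UWKOS7 exceeded all 3 non-tumorigenic lines at 6 of the 7 fatty acid genes, FADS1 being the exception. That is 85.7%, against 38.5% of all genes tested and 1 of the 17 sterol enzymes. On the third probe set of FASN, UWKOS7 read 6.57 and lay below UWKOS6 at 6.71. Whether the fatty acid and the sterol genes differed from each other in their group difference was not tested.

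**Figure D3:**
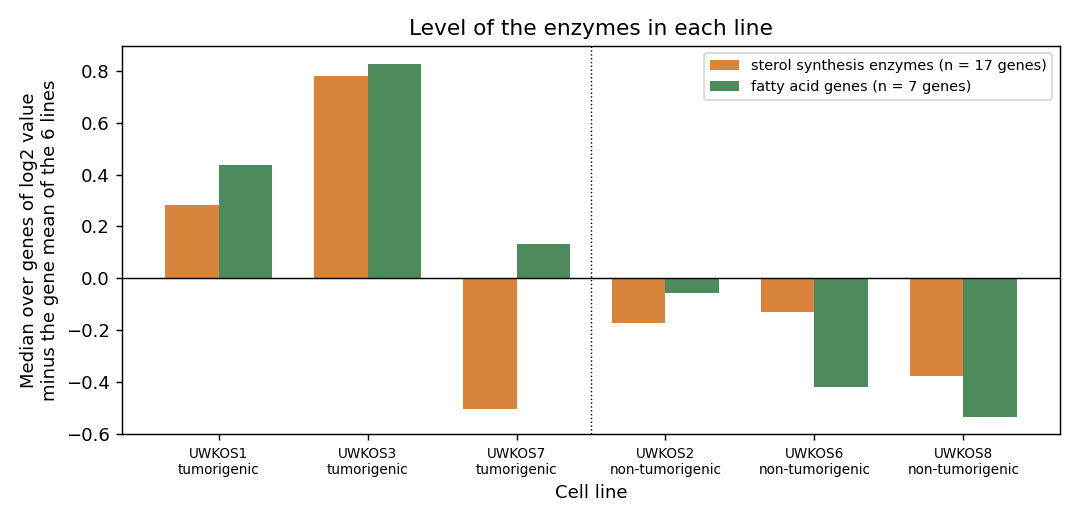
Median over genes of the log2 value minus the gene's mean over the 6 lines (y axis), for the 17 sterol synthesis enzymes (orange) and the 7 fatty acid genes (green) in each line (x axis, tumorigenic left of the dotted line). UWKOS3 is highest for both lists, at 0.78 and 0.83, and UWKOS7 is at -0.50 for sterol enzymes and at 0.13 for fatty acid genes.

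FADS1, the delta-5 desaturase that completes arachidonic acid, was described after its values were seen. It read 11.33 in UWKOS1, 12.47 in UWKOS3 and 7.76 in UWKOS7, against 11.19 in UWKOS2, 11.02 in UWKOS6 and 11.06 in UWKOS8. UWKOS7 lay far below all other lines while UWKOS3 lay above them, so the tumorigenic SD was 2.46 and the non-tumorigenic SD 0.09, and the group difference was -0.57 (95% interval -3.29 to 2.15, limma adjusted p = 0.763). On the 3 probe sets of FADS1, UWKOS7 minus the lowest other line was -3.26, -3.50 and -3.06. Among 9145 genes tested, 5 including FADS1 were as far below all other lines in UWKOS7, and 10 were as far below in UWKOS3 and 9 in UWKOS1. The genes nearest to FADS1 in the RefSeq table with a tested probe set were not low there: in UWKOS7, FADS3 read 11.56, FADS2 read 6.99, FEN1 read 10.24 and TMEM258 read 11.29, and none of them was lowest in that line. There is 1 array of UWKOS7, so the value has no replicate check.

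**Figure D4:**
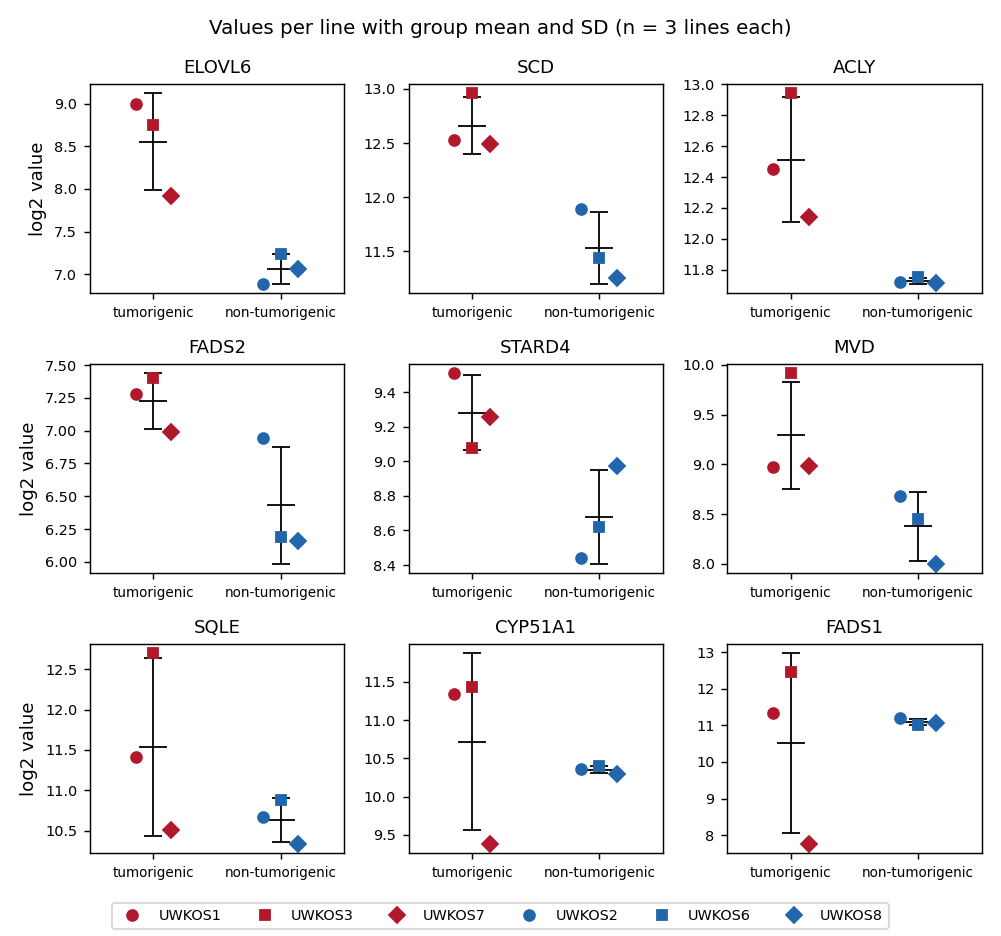
Log2 value (y axis, a separate range in each panel, not starting at 0) of 9 genes in each line (points, tumorigenic in red and left, non-tumorigenic in blue and right, with a symbol per line), with the group mean and SD (black bars, n = 3 lines each). ELOVL6, SCD, ACLY, FADS2, STARD4 and MVD show no overlap between the groups. In SQLE, CYP51A1 and FADS1 the UWKOS7 diamond lies below both other tumorigenic lines.

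Both calls held without UWKOS7 (limma adjusted p = 0.0155 for ELOVL6 and 0.0413 for SCD), and SCD also held without UWKOS2 (limma adjusted p = 0.0442). Neither ELOVL6 nor SCD passed when UWKOS1, UWKOS3, UWKOS6 or UWKOS8 was left out, where 6.43%, 3.89%, 0.131% and 3.64% of all genes passed, in that order of lines. Without UWKOS2, ELOVL6 did not pass, with 5.23% of all genes called. Over these settings and the one without UWKOS7, the differences lay between 1.27 and 1.81 for ELOVL6 and between 0.98 and 1.31 for SCD. With the mean 3' to 5' ratio as a covariate, 0.12% of all genes passed, and ELOVL6 and SCD differed by 1.49 and 0.79 (limma adjusted p = 0.239 and 0.263). When UWKOS6 and UWKOS8, whose ratios were high, were both left out, 0.0109% of all genes passed and the differences were 1.67 and 0.77 (limma adjusted p = 0.362 and 0.457). Without UWKOS7, 5 of 29 members rose, namely ELOVL6, SCD, ACLY, MVK (1.00) and CYP51A1 (1.03). In that fit 823 of 9145 genes were called higher, and 14.4% in either direction. The median over the 17 sterol enzymes was then 0.87. Without UWKOS3 that median was 0.21, so its size rested on which tumorigenic lines were counted.

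The dimmer probe sets of a member mostly differed more than the brightest one. Members had 72 probe sets in all, and 61 were above the filter, of which 6 were called higher and 0 lower in the fit over all probe sets, where 7.28% were called higher and 12% in either direction. Of these 6, the dimmest of ACLY and of SCD reached the filter only through the tumorigenic lines. Of 32 tested probe sets that were not the brightest of their gene, 26 differed more in the upward direction than the brightest. The like share over all genes was not computed. The median of all genes tested was 0.03 on the brightest probe sets and 0.11 with probe sets averaged. For HMGCS1, the 2 dimmer probe sets differed by 1.37 and 1.65 (limma adjusted p = 0.134 and 0.117), against 0.56 on the brightest. Averaged over a gene's probe sets, ACLY and STARD4 passed as well as ELOVL6 and SCD. In that fit 771 of 8031 genes were called higher, and 13.8% in either direction. The size of a member's difference therefore depends on the probe set read, and whether the 3' to 5' ratios above have a part in this was not tested.

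Of 49 tested genes in other lists of these pathways, 2 rose and 4 fell, or 12.2% called, near the 12.1% of all genes tested. Among 4 further sterol synthesis genes, LBR rose by 1.04 (limma adjusted p = 0.0254). LBR is an inner nuclear membrane protein that also acts as a C14 sterol reductase, the step shared with TM7SF2, which differed by 0.10. Among 11 measured genes of the isoprenoid branch, PGGT1B, a subunit of a protein prenyltransferase, rose by 1.17 (limma adjusted p = 0.0275), with 8.05, 8.10 and 8.15 in UWKOS1, UWKOS3 and UWKOS7, against 7.37, 6.69 and 6.72 in UWKOS2, UWKOS6 and UWKOS8. Among 6 genes of a list drawn up for SREBP processing and degradation 0 passed. MBTPS2, the intramembrane protease that releases SREBPs, read 9.07, 8.73 and 8.46 in UWKOS1, UWKOS3 and UWKOS7, against 8.19, 7.90 and 7.89 in UWKOS2, UWKOS6 and UWKOS8, a difference of 0.76 that did not pass (limma adjusted p = 0.0629). In the same list TBL1XR1 differed by 1.32 and MBTPS1 by 0.13 (limma adjusted p = 0.0649 and 0.738). The part of TBL1XR1 in SREBP processing was not examined here. The difference was above 0 for 4 of the 6 genes listed, TBL1XR1 among them.

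Of 16 measured genes of sterol uptake, storage and efflux, 13 were above the filter, and 2 fell, where 4.63% of all genes tested fell. Groups of the 16, which include genes below the filter, did not overlap for 2 genes higher and 5 lower in the tumorigenic lines. Over all genes tested, groups did not overlap for 21.7% higher and 16.6% lower. LRP1, an endocytic receptor of lipoproteins and other ligands, read 6.72 in UWKOS1, 6.18 in UWKOS3 and 7.71 in UWKOS7, against 9.21 in UWKOS2, 9.82 in UWKOS6 and 9.73 in UWKOS8. It fell by 2.72 on the log2 scale (SE 0.41, limma adjusted p = 0.0187), and by 1.64 with its probe sets averaged. NPC2, which moves cholesterol out of lysosomes, fell by 1.14 (limma adjusted p = 0.0242). Among 21 measured fatty acid and glycerolipid genes, 15 were above the filter, and AGPAT2, an acyltransferase of triglyceride and phospholipid synthesis, fell by 1.73 and ME1, the cytosolic malic enzyme that supplies NADPH, by 0.84 (limma adjusted p = 0.0331 and 0.0338). All 6 calls were lost without UWKOS6, where 0.131% of all genes passed and the differences were of like size, such as -2.60 for LRP1 and 1.00 for LBR, and all 6 without UWKOS8. Without UWKOS1, UWKOS2, UWKOS3 and UWKOS7, in that order, 5, 3, 4 and 1 of the 6 were lost. All 6 were also lost with the GAPDH or the mean 3' to 5' ratio as a covariate. In those fits 0.109% and 0.12% of all genes passed. ME1 also missed the threshold when centred on the hybridization controls or with probe sets averaged (limma adjusted p = 0.0622 and 0.0670).

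Markers of fat cells, which use the same fatty acid enzymes, went in different directions. Of 6 adipocyte markers, 4 lay below the filter, and the summed linear signal was 232.5 to 1753 in tumorigenic lines and 199.7 to 213.3 in non-tumorigenic lines. The upper value was UWKOS1, where PPARG, the adipogenic nuclear receptor, read 10.39, against 4.65 in UWKOS3, 5.78 in UWKOS7, 4.84 in UWKOS2, 4.63 in UWKOS6 and 4.89 in UWKOS8. FABP4, the adipocyte fatty acid-binding protein, read 8.20 in UWKOS1, 6.53 in UWKOS3 and 6.67 in UWKOS7, against 5.18 in UWKOS2, 5.54 in UWKOS6 and 4.53 in UWKOS8. Its difference of 2.06 (limma adjusted p = 0.0471) came from a gene that reached the filter only through the tumorigenic lines, and it did not pass without the filter (limma adjusted p = 0.068) or with any 1 line left out. ADIPOQ, which defines mature adipocytes, and LPL, a lipase of fat cells, lay below the filter and were lower in every tumorigenic line than in every non-tumorigenic one. CIDEC, a lipid droplet protein, was lowest in UWKOS1 at 3.79, and PLIN1, another, lay between 6.09 and 6.58 in all lines. The part of these markers in the results on ELOVL6 and SCD was not tested. The sums of epithelial markers were 78.44 to 479.6 in tumorigenic lines and 71.3 to 91.51 in the others, again highest in UWKOS1, and their part in the results was not tested. Sums of leukocyte and endothelial markers ranged from 256.9 to 365.6 and from 423.8 to 591.8 in tumorigenic lines, against 351 to 406.8 and 363.8 to 374.2 in non-tumorigenic lines. By their means over the lines, 4 of 4 epithelial, 4 of 6 leukocyte and 3 of 5 endothelial markers lay below the filter. Some single epithelial values were above it. In UWKOS1, EPCAM read 7.65, KRT8 6.49 and KRT18 7.44. In UWKOS3, whose epithelial sum was 216.2, KRT8 read 6.64 and KRT18 6.41. CDH1 lay below it in every line.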

How the data were processed

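Biotin-labelled cRNA from 10 µg of Trizol-extracted total RNA was hybridised to Affymetrix canine arrays, 1 per line, per the labels. The authors deposited log2 values; MAS5 is the only tool given, per the submitters' processing notes, without a version. Log2 is inferred from the range (1.97 to 14.83), and the nearly equal array quantiles leave the summary method unsettled. Values were used as deposited, without an offset, and 0 columns were left out.

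Of 43035 probe sets, 111 were controls, 29254 had 1 symbol, 439 several and 13231 none. For 27680 probe sets the gene identifier gave a current symbol in RefSeq (assembly UU_Cfam_GSD_1.0). Each gene was read from its brightest probe set, 9145 genes passed the filter, and groups were compared with limma 3.58.1 in R 4.3.3 (lmFit, eBayes, Benjamini-Hochberg). Labels state neither whether lines came from separate dogs nor any pairing. The members and lists were chosen with earlier results of these data known. Described in full were called members, the 2 of smallest p per role, SREBF1, SREBF2, INSIG1 and members without overlap between groups; of other lists, called genes and MBTPS2. The fit was tested on simulated data. Promoter motifs and sequences were not analysed here. The alternatives tried are given in the closing section. Figures were drawn with matplotlib 3.10.9.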

Additional observations from a re-analysis of the deposited data

How the results depend on the processing

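Over 19 alternative settings, each of the 31 measured genes was compared with its value above, 579 comparisons in all: 557 kept their side of the threshold, 15 lost a call, 7 gained one and 0 calls changed direction. The 15 were all of ELOVL6 and SCD, and the 7 were of ACLY, STARD4, MVK and CYP51A1. The number of members called higher was 1 with an upper-quartile filter, which left ELOVL6 out, 4 with probe sets averaged per gene, and 0 without both UWKOS6 and UWKOS8, with the GAPDH ratio or with the mean ratio as a covariate. It ranged from 0 to 5 with 1 line left out. The number called lower was 0 in every setting run. The number of genes called over all genes tested was 1 without both lines, 10 and 11 with the GAPDH and the mean ratio, 12 to 1313 with 1 line left out (12 without UWKOS6, 333 without UWKOS8), and 2580 probe sets in the fit over all probe sets. The median of the fatty acid genes was 0.32 without both lines and 0.38 with the mean ratio; the first of these fits left UWKOS2 as the lone non-tumorigenic line, taken to have the spread of the other group. The medians of the members and of the sterol enzymes stayed above 0, between 0.21 and 0.81 and between 0.21 and 0.87. The cause of these changes was not tested. Centring on the hybridization controls moved the median of all genes tested to 0.20, and the split of calls to 1146 higher and 304 lower, from 686 and 423; with the 75th percentile it was 550 and 474. Under the first of these centrings STARD4 passed (limma adjusted p = 0.0474). Signs differed in some settings for SREBF2, SREBF1, SCAP, PMVK, FDPS, FDFT1, MSMO1, EBP, TM7SF2, DHCR7 and FADS1, none of them with a call. The planned offsets did not apply to log2 values and were not run. No paired analysis was possible because the labels give no numbers that pair lines.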
